A study of Homo sapiens with 54 samples.

Results

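The genes described here are the cytosolic heat shock chaperones, a group of 10 genes out of the 33119 named in the deposited tables. They were chosen by symbol, whatever their counts, and all 10 were found in both tables: HSPA1A, HSPA1B, HSPA8, HSPH1, HSP90AA1, HSP90AB1, DNAJB1, HSPB1, HSPB8 and BAG3. RNA was counted at transcript 3′ ends in 6 established human cancer cell lines, in 54 libraries that form 18 groups of 3. Set 1 held the colorectal lines SW48 and SW620 as controls or with trametinib, which blocks the MEK kinases of the MAP kinase cascade. Set 2 held SW48 and SW620 as controls, with trametinib or with palbociclib, which blocks CDK4 and CDK6 and so entry into S phase. It also held the stomach lines NCI-N87 and MKN-45 and the breast lines BT-20 and BT-474, as controls or with afatinib, which binds EGFR and HER2 covalently and blocks their kinase activity. The sources used here give no dose, no exposure time and no description of what the controls received. The labels do not tell whether replicate libraries stem from different cultures, and the p-values below therefore reflect only library-to-library spread, which may be technical.

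Heat shock proteins keep other proteins folded. The HSP70 proteins bind exposed stretches of unfolded chains, J-proteins such as DNAJB1 deliver clients to them and start their ATP cycle, and HSP110 (HSPH1) and BAG3 release the bound nucleotide so that the cycle can run again. HSP90 proteins take over clients that are nearly folded, many of them kinases, and small heat shock proteins hold unfolded chains without ATP. Heat shock factor 1 (HSF1) drives most of these genes by binding arrays of short inverted units, called heat shock elements, in their promoters.

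Promoter sequences are shown because all 10 genes are known for control through such elements, and because HSPA1A and HSPA1B, of which SW48 had almost only the second, are near copies. RefSeq promoters of GRCh38.p14, each 300 bases from 250 before to 50 after a start site, matched all 10 genes with 15 start sites. They were searched for 2 facing units, GAANNTTC or TTCNNGAA; each motif is its own reverse complement, so both strands are covered. A match lay in 9 of the 15 windows and in 13.49% of all 35116 promoters. At least 1 start site of 8 of the 10 genes held one, and BAG3 and HSPH1 held none in these windows. A run of 3 alternating units lay in 3 of the 15 windows, those of HSP90AA1, HSP90AB1 and HSPA8, and in 0.49% of all promoters. A match is a description of the letters only. The stretches of 60 bases below read 5′ to 3′ on the gene's strand, with the longest match in capitals, or the first of equally long ones. The windows of HSPA8, HSP90AB1, DNAJB1 and HSPB8 held another match of equal length further downstream, which is not shown. DNAJB1 also had a match in a window of another start site.
HSPA1A, chr6:31815397-31815456, plus strand: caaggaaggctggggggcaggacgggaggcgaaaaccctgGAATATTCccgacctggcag
HSPA1B, chr6:31827593-31827652, plus strand: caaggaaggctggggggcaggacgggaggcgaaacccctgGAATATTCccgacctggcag
HSPA8, chr11:123062327-123062386, minus strand: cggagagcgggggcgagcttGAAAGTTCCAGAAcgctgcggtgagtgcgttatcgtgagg
HSP90AA1, chr14:102087113-102087172, minus strand: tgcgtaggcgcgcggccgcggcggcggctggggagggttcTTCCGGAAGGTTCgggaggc
HSP90AB1, chr6:44247738-44247797, plus strand: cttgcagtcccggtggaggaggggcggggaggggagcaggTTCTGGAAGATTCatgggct
DNAJB1, chr19:14518455-14518514, minus strand: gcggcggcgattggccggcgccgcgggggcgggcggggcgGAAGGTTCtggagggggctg
HSPB1, chr7:76302451-76302510, plus strand: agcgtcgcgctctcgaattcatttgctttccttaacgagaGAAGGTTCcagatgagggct
HSPB8, chr12:119178803-119178862, plus strand: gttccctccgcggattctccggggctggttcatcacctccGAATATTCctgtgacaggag
The whole promoters of HSPA1A and HSPA1B, aligned with gaps, were identical in 277 of 301 columns (92.0%), and each held the same match once.

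Libraries of set 1 held 4063382 to 10622670 counts and those of set 2 held 3401565 to 12806042. All 6 lines carried the epithelial markers EPCAM, KRT8, KRT18 and CDH1. Of the stomach markers TFF1, TFF2, MUC5AC, MUC6, CLDN18 and GKN1, none was above 1.11 CPM in NCI-N87 controls, whereas MKN-45 controls had 65.6 CPM of MUC5AC. The colorectal markers CDX1 and KRT20 were at or near 0 in both colorectal lines, with CDX2 at 98.4 CPM in SW48 and 30.1 CPM in SW620 controls of set 2. Genes that mark another of the lines summed to as much as 21.5% of that line's own level in SW48 libraries of set 1 and 9.59% in SW620 libraries of set 1, against at most 4.23% in any set 2 library; the median such gene was at 1.80% or less throughout. Several libraries stood apart in the chaperones, namely control 3 of SW620 and trametinib 1 of SW48 in set 1, and control 1 of NCI-N87, control 2 of MKN-45, trametinib 1 of SW620 and afatinib 3 of BT-474 in set 2. Values without them are given below where a call or a named value moved.

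Levels are given as CPM, that is counts scaled to a common library size, with TMM factors within a set. Each read stands for a transcript's 3′ end, so these values do not grow with transcript length. Among the controls of set 2 all 10 genes differed between the 6 lines (edgeR quasi-likelihood test with Benjamini-Hochberg adjustment), as did 97.1% of all genes tested. The 2 cytosolic HSP90 genes were the most abundant of the group in every line, and BAG3 was among the least. Apart from HSPA1A and HSPB8, the highest and lowest lines lay 2.26-fold (BAG3) to 4.62-fold (HSPH1) apart.

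HSPA1A encodes the stress-inducible HSP70. It stood at 435 ± 33.7 CPM in BT-474 controls (SD, n = 3), 340 ± 31.1 in NCI-N87, 162 ± 5.77 in BT-20, 140 ± 37.0 in MKN-45 and 68.5 ± 12.3 in SW620. BT-474 and NCI-N87 did not differ past the threshold (adjusted p = 0.0583 by edgeR's quasi-likelihood test), nor did BT-20 and MKN-45 (adjusted p = 0.295). In SW48 controls of set 2 it was at 1, 0 and 0 counts. SW620 controls of set 1 had 309, 190 and 110 CPM of HSPA1A, scaled within that set.

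HSPA1B, which encodes the same protein bar a few residues, was present in all 6 lines. Controls had 146 ± 15.3 CPM in BT-474, 70.0 ± 22.1 in MKN-45, 69.0 ± 4.13 in NCI-N87, 68.4 ± 5.51 in BT-20, 44.4 ± 2.98 in SW48 and 38.4 ± 2.57 in SW620. MKN-45, NCI-N87 and BT-20 were not told apart, and neither were SW48 and SW620 in set 2 (adjusted p = 0.270, edgeR). In set 1 controls HSPA1B had 110, 96.1 and 118 CPM in SW48 and 33.4, 20.7 and 71.1 in SW620. Those groups did not overlap, and their difference was not tested. SW48 was lower in HSPA1B than BT-474, MKN-45, NCI-N87 and BT-20 (edgeR adjusted p = 1.83e-08, 0.000896, 0.00115 and 0.00158).

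HSPA8, the constitutive HSP70 of the cytosol, was highest in SW620 (437 ± 77.5 CPM), MKN-45 (407 ± 60.2) and BT-474 (378 ± 23.0), which did not differ. NCI-N87 followed with 199 ± 79.8 CPM, and SW48 (138 ± 17.7) and BT-20 (120 ± 7.13) were lowest. HSPH1, the HSP110 exchange factor of HSP70, was highest in MKN-45 at 847 ± 72.0 CPM, and SW620 followed with 415 ± 14.8 (adjusted p = 0.000344, edgeR). BT-474 had 340 ± 30.4 CPM of it, BT-20 248.8 ± 15.2, NCI-N87 221 ± 124 and SW48 184 ± 10.6. From SW620 down to SW48, no line differed from the next past the threshold in HSPH1, while SW620 and SW48 themselves did (adjusted p = 0.000186, edgeR).

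HSP90AA1, the inducible cytosolic HSP90, stood at 5211 ± 203 CPM in BT-474 and 5046 ± 317 in MKN-45, which did not differ (adjusted p = 0.833, edgeR). SW620 had 3584 ± 377 CPM, SW48 3108 ± 275, NCI-N87 2178 ± 618 and BT-20 1720 ± 90.5. HSP90AB1, the constitutive form, ran from 5035 ± 778 CPM in MKN-45 through 4068 ± 433 in SW620, 3593 ± 158 in BT-474, 2982 ± 548 in NCI-N87 and 2849 ± 149 in SW48 to 1537 ± 62.9 in BT-20. BT-20 was thus lowest in both HSP90 genes. From SW620 to SW48 no line differed from the next in HSP90AB1, while SW620 and SW48 themselves did (adjusted p = 0.00263, edgeR).

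DNAJB1, the main inducible J-protein partner of HSP70, had 254 ± 4.92 CPM in BT-474, 213 ± 14.3 in SW620, 173 ± 2.28 in BT-20, 132 ± 18.9 in NCI-N87, 126 ± 19.1 in MKN-45 and 95.6 ± 5.21 in SW48. Only NCI-N87 and MKN-45 were neighbours that did not differ (adjusted p = 0.633, edgeR). BAG3, the exchange factor that links HSP70 to small heat shock proteins, ran from 46.9 ± 6.98 CPM in NCI-N87 to 20.8 ± 1.45 in BT-20. In that order SW48 and SW620 were the neighbours that differed in BAG3 (adjusted p = 0.0354, edgeR).

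HSPB1 (HSP27), a small heat shock protein of most epithelial cells, had 968 ± 144 CPM in NCI-N87, 877 ± 55.6 in BT-474 and 793 ± 58.3 in BT-20. BT-474 was not told apart from either neighbour, while NCI-N87 and BT-20 differed (adjusted p = 0.0401, edgeR). SW620 had 503 ± 94.4 CPM, SW48 362 ± 32.9 and MKN-45 244 ± 4.76, each below the one before. HSPB8 (HSP22), the small heat shock protein that works with BAG3, was a gene of the breast lines. It had 59.4 ± 4.63 CPM in BT-474 and 41.1 ± 2.70 in BT-20 controls. It was at 0 counts in all 15 SW48 libraries, in all 6 MKN-45 libraries and in 13 of 15 SW620 libraries, and NCI-N87 libraries held at most 4 counts. With 3 counts taken as the floor, those zeros allow at most 0.234 to 0.738 CPM per library in SW48, SW620 and MKN-45.

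**Figure D1:**
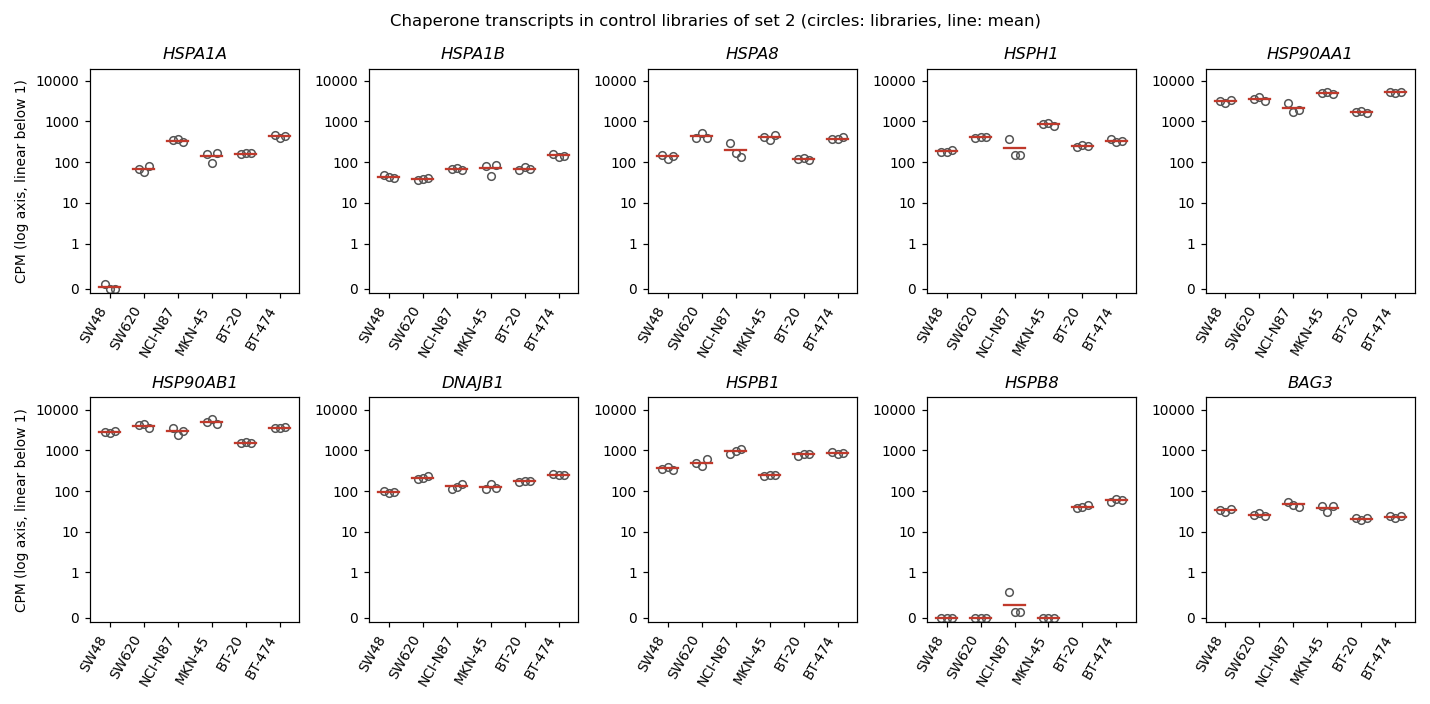
CPM of the 10 chaperone genes in the control libraries of set 2, by cell line, on a log axis that is linear below 1 CPM; each circle is a library and each line the mean of 3. HSPA1A is near 0 in SW48 alone, HSPB8 lies above 1 CPM only in BT-20 and BT-474, and the other 8 genes are present in all 6 lines.

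HSPA1A and HSPA1B lie next to each other on chromosome 6, at 31815464 to 31817946 and 31827735 to 31830255 (plus strand, GENCODE annotation of GRCh38), as single-exon genes. Of all 50-base windows of the HSPA1A transcript, 72.6% also occur in the HSPA1B transcript, but the last such shared window ends 331 bases before the end of HSPA1A and 446 before that of HSPA1B. In the last 300 bases no window of either was shared with any annotated transcript, and this is the end that the assay reads. The same check found 36.3% of the end windows of HSPB1 in its pseudogenes HSPB1P1 and HSPB1P2 and 0.797% of those of HSPA8 in HSPA8P5. Counts of HSPB1 could therefore be split with those copies by the authors' counting, and the other 8 genes shared no window.

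Over the 9 SW48 libraries of set 2, HSPA1A had 6 counts and HSPA1B 9842. HSPA1A was thus 0.0609% of the pair (exact 95% binomial interval 0.0224 to 0.133%, counting error only). In the other 5 lines of set 2 it was most of the pair in every group, from 64.2% in SW620 with trametinib to 83.1% in NCI-N87 controls. In set 1 it was 2.25% in SW48 controls (51 counts) and 1.67% with trametinib (60 counts), against 83.1% and 88.8% in SW620. By library these were 22, 12 and 17 counts in controls and 37, 22 and 1 with trametinib. The SW48 libraries of set 1 also held the counts of other lines' genes described above, whose part in these HSPA1A counts was not tested.

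**Figure D2:**
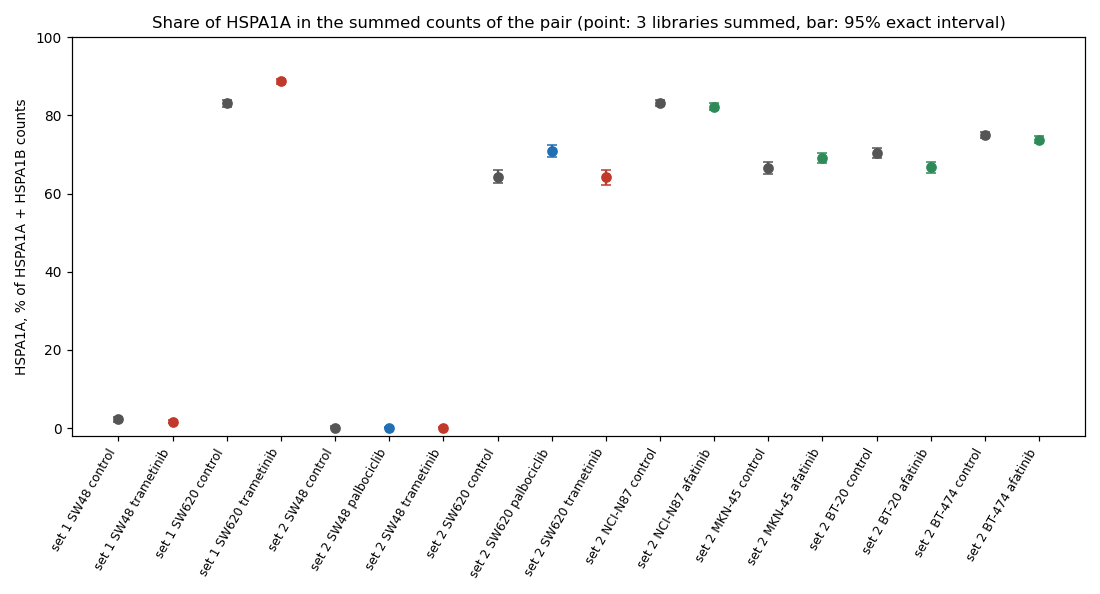
Share of HSPA1A in the summed HSPA1A and HSPA1B counts of each group (y axis, percent), with exact 95% binomial intervals for counting error; grey marks controls, red trametinib, blue palbociclib and green afatinib. The 5 SW48 groups lie at 2.25% or lower and all other groups at 64.2% or higher.

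In SW48, both drugs were accompanied by higher transcripts of nearly the whole group. All 8 members that could be tested in set 2 rose with trametinib and all 8 rose with palbociclib, and 7 of 9 rose with trametinib in set 1. Among all genes tested, 30.1% were higher with trametinib in set 2, 28.3% with palbociclib and 16% with trametinib in set 1. The members' median log2 fold change was 0.84, 0.74 and 0.65, against a median of 0.01 over all genes in each comparison. The trametinib and palbociclib comparisons of set 2 share their 3 controls. HSPA1A in set 2 and HSPB8 in both sets had too few counts to be tested in SW48. Signs of library quality moved with treatment in this line. The rows RNR1 and RNR2 took 0.970 to 1.60% of counts in set 2 controls, 2.25 to 3.33% with trametinib and 2.93 to 4.52% with palbociclib, and in set 1 1.63 to 3.81% in controls and 4.64 to 5.64% with trametinib. The reads not aligned in set 1 were 22.4 to 38.0% in controls and 42.4 to 47.5% with trametinib. Their part in the chaperone values was not tested.

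Among the HSP70 genes, HSPA1B had the highest fold of all members in set 2 with both drugs. HSPA1B stood at 47.6, 43.8 and 41.7 CPM in SW48 controls of set 2, at 145, 157 and 146 CPM with trametinib, and at 153, 157 and 171 CPM with palbociclib. Every treated library lay above every control, and the drug groups overlapped each other. The fold was 3.32 with trametinib (log2 1.73 ± 0.07 SE, adjusted p = 7.92e-10) and 3.63 with palbociclib (log2 1.86 ± 0.08 SE, adjusted p = 1.10e-10; edgeR). In set 1 HSPA1B went from 110, 96.1 and 118 CPM to 251, 273 and 179 with trametinib, a 2.18-fold rise (adjusted p = 0.00136, edgeR). HSPA1A in set 1 had 3.80, 1.70 and 2.23 CPM in controls and 6.77, 5.06 and 0.185 with trametinib, and these groups overlapped.

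HSPA8 had 153, 118 and 143 CPM in SW48 controls of set 2, 310, 258 and 228 with trametinib and 288, 299 and 248.7 with palbociclib. All 6 treated libraries lay above all 3 controls. The log2 fold change was 0.93 ± 0.11 SE with trametinib (adjusted p = 1.09e-05, edgeR) and 1.02 ± 0.09 SE with palbociclib (adjusted p = 2.57e-07, edgeR). In set 1 it was 0.50 ± 0.16 SE (adjusted p = 0.0376, edgeR), with 202, 189 and 182 CPM in controls and 340, 238 and 225 with trametinib. The set 1 call of HSPA8 was lost on leaving out any of 5 of the 6 libraries, all but trametinib 3 (edgeR adjusted p = 0.0502 to 0.108), and the value was 0.29 without trametinib 1.

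HSPH1 stood at 178, 177 and 196 CPM in SW48 controls of set 2, at 260, 264 and 257 with trametinib and at 312, 294 and 320 with palbociclib. The 3 groups did not overlap. It rose 1.40-fold with trametinib and 1.68-fold with palbociclib, and 1.71-fold with trametinib in set 1 (edgeR adjusted p = 1.69e-05, 1.97e-07 and 0.000954). DNAJB1 had 101, 90.9 and 94.8 CPM in controls, 178, 185 and 179 with trametinib and 172, 151 and 167 with palbociclib. Its rise was 1.87-fold and 1.71-fold in set 2 and 1.42-fold with trametinib in set 1 (edgeR adjusted p = 9.27e-08, 4.56e-07 and 0.00555). All treated libraries of DNAJB1 lay above all controls.

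Both cytosolic HSP90 genes rose, with folds nearer to 1 for HSP90AB1. HSP90AA1 went from 3221, 2795 and 3307 CPM to 5697, 5343 and 5065 with trametinib and to 4161, 4367 and 4110 with palbociclib in set 2. The 3 groups were fully apart. Its log2 fold change was 0.77 ± 0.07 SE with trametinib, 0.44 ± 0.06 SE with palbociclib and 1.11 ± 0.17 SE with trametinib in set 1. The set 1 value was 0.86 without trametinib 1, which had 6847 CPM against 4241 and 4487 in the other two, and stayed past the threshold (adjusted p = 0.000449, edgeR). HSP90AB1 changed little in size: 2796, 2733 and 3017 CPM in controls, 3315, 3286 and 3167 with trametinib and 3369, 3548 and 3167 with palbociclib. That is 1.13-fold and 1.18-fold, and 1.18-fold with trametinib in set 1 (edgeR adjusted p = 0.00999, 0.00321 and 0.0207). Its trametinib calls were lost in set 1 without control 2, control 3, trametinib 1 or trametinib 2 (adjusted p = 0.0541 to 0.0712) and in set 2 without control 1 (adjusted p = 0.0576, edgeR).

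HSPB1 stood at 349, 399 and 337 CPM in SW48 controls of set 2, at 670, 788 and 802 with trametinib and at 659, 556 and 591 with palbociclib. Both treated groups lay above the controls. Its fold was 2.05 with trametinib, 1.66 with palbociclib and 2.74 with trametinib in set 1 (edgeR adjusted p = 3.08e-07, 1.95e-06 and 0.000248). In set 1 it was the member with the highest fold, from 380, 363 and 507 CPM to 997, 1306 and 1104. BAG3 had 33.3, 30.5 and 37.1 CPM in controls, 48.5, 43.7 and 37.9 with trametinib and 48.0, 45.7 and 48.6 with palbociclib. It rose 1.28-fold and 1.41-fold (edgeR adjusted p = 0.00921 and 0.000171), while in set 1 its log2 difference of 0.26 (95% interval -0.23 to 0.75) did not pass.

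The same drugs gave a different picture in SW620. With trametinib none of the 9 members tested passed in set 1 or in set 2, and 0% of all genes did (edgeR). At an unadjusted p under 0.05 there were 0 members in set 1 and 3 in set 2, and DESeq2 also called 0 in both. The share of all genes at that unadjusted threshold was not counted, so the 3 members have no reference. With palbociclib 1 of 9 members passed, HSPA1B, which was lower, as were 17.4% of all genes. HSPA1B stood at 35.7, 38.8 and 40.8 CPM in SW620 controls, at 26.6, 30.7 and 26.2 with palbociclib and at 27.9 to 31.8 with trametinib. It fell by 0.42 on the log2 scale with palbociclib (SE 0.11, adjusted p = 0.0140, edgeR), a call that was lost without palbociclib 3 (adjusted p = 0.0504) and with the counts of HSPA1A and HSPA1B summed (adjusted p = 0.413).

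The other members in SW620 are given by their values, since none passed. HSPA8 had 401, 525 and 383 CPM in set 2 controls, 409, 280 and 367 with trametinib and 367, 418 and 446 with palbociclib, which overlap. HSPH1 had 398, 425 and 422 CPM in controls, 390, 303 and 294 with trametinib and 429 to 487 with palbociclib. The trametinib libraries of HSPH1 all lay below the controls. Without trametinib 1 the log2 difference of HSPH1 was -0.47 and passed (adjusted p = 0.0334, edgeR), and it was the only member to pass there. As single libraries were left out of this comparison, the genes called in all ran from 0 to 882. HSPA1A had 69.4, 55.8 and 80.3 CPM in controls, 55.5, 45.1 and 58.2 with trametinib and 66.3, 62.0 and 75.5 with palbociclib. Each drug group overlapped the controls, and the drug groups did not overlap each other. HSP90AA1 was at 3261 to 3998 CPM in controls, 3440 to 3753 with trametinib and 2932 to 3163 with palbociclib, where without control 3 it passed as lower (-0.26, adjusted p = 0.0319, edgeR). HSPB1 was at 423 to 607, 454 to 534 and 429 to 502 CPM in the same order. DNAJB1 had log2 differences of -0.07 with trametinib and -0.04 with palbociclib, HSP90AB1 0.03 and 0.00309, and BAG3 -0.19 and 0.16.

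HSPB8 had 17, 10 and 0 counts in SW620 with palbociclib and 0 counts in all 12 other SW620 libraries. It was left out of the test by the filter on low counts. With no filter it passed for palbociclib against controls (adjusted p = 0.0169) and for trametinib minus palbociclib (adjusted p = 0.0223; edgeR), on these 27 counts in 2 libraries. In set 1, control 3 of SW620 had 7044 CPM of HSP90AA1 and 1099 CPM of HSPB1, against 3435 and 3353, and 333 and 316, in the other two controls. With trametinib HSP90AA1 had 3488, 1888 and 2730 CPM and HSPB1 had 473, 596 and 552. The log2 difference of HSPB1 was -0.14 with that control and 0.71 without it, and neither passed (edgeR adjusted p = 0.961 and 0.212). That of HSP90AA1 was -0.81 with it and -0.36 without it, and that of HSPA8 0.15 and -0.15, none past the threshold. The other 6 members of set 1 lay between -0.43 (HSP90AB1) and 0.32 (HSPA1A).

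**Figure D3:**
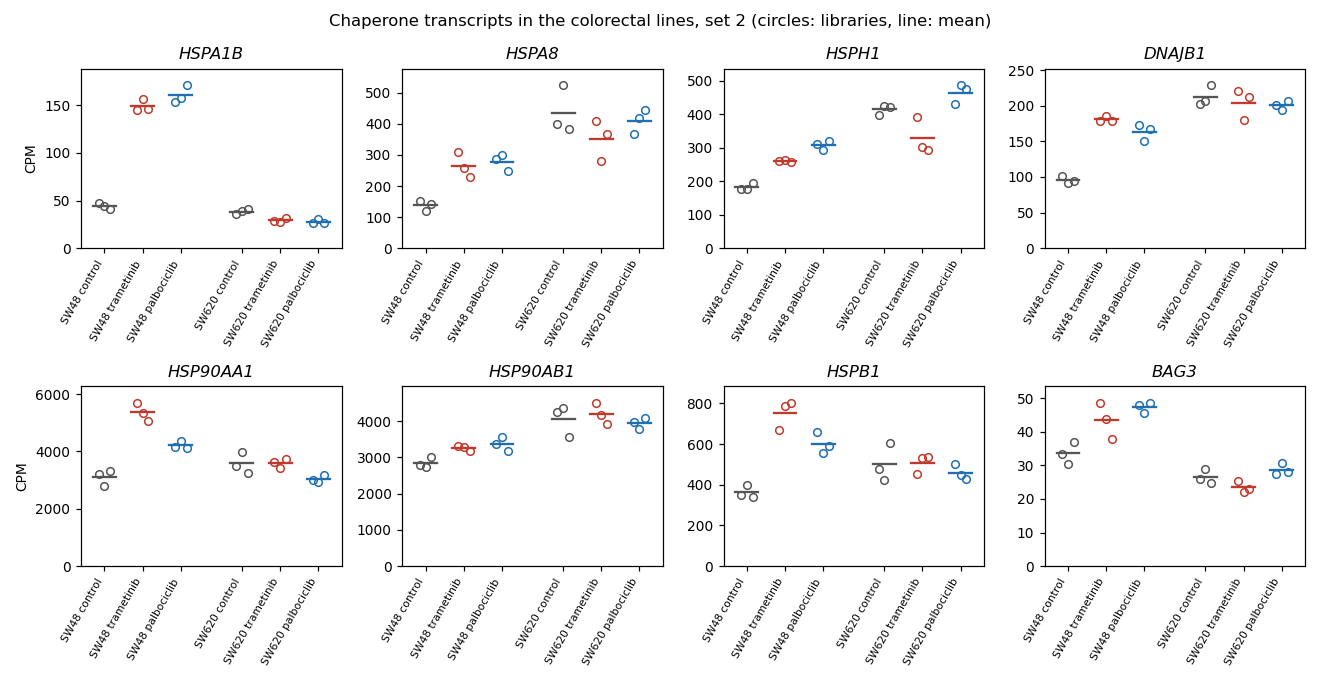
CPM of 8 chaperone genes in the set 2 libraries of SW48 and SW620 (x axis: line and treatment; circles: libraries; lines: means; grey control, red trametinib, blue palbociclib). In SW48 the treated libraries of all 8 genes lie above the controls, and in SW620 most groups overlap. The share of all genes whose groups lie apart in this way was not counted.

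The difference between the lines was tested itself, as the drug effect in SW620 minus that in SW48. The SW48 and SW620 controls of set 2 serve both drugs here. For trametinib in set 2, 7 of 9 members were lower in this test, as were 12.9% of all genes, and for palbociclib 6 of 9 were, against 11.2% of all genes. HSPA1B differed most, by -2.11 ± 0.12 SE for trametinib and -2.27 ± 0.13 SE for palbociclib on the log2 scale (edgeR adjusted p = 7.70e-08 and 1.22e-08). HSPA8 differed by -1.23 and -1.05, HSPB1 by -1.02 and -0.81, DNAJB1 by -0.95 and -0.81, HSPH1 by -0.81 and -0.54, and HSP90AA1 by -0.75 and -0.62. BAG3 passed for trametinib (-0.52, adjusted p = 0.0228) and not for palbociclib (-0.33, adjusted p = 0.0922; edgeR). The former was lost without control 2 of SW48, control 2 of SW620 or trametinib 2 of SW620 (adjusted p = 0.0545 to 0.0600), and with the replicate number as a block (adjusted p = 0.0545), and the latter passed without control 3 of SW48 (adjusted p = 0.0418). HSP90AB1 passed for neither, with differences of -0.12 (95% interval -0.38 to 0.13) and -0.23 (-0.46 to 0.01); without control 3 of SW620 the palbociclib value was -0.31 and passed (adjusted p = 0.0227, edgeR). HSPA1A entered these fits with at most 3 counts per SW48 group, so its value is not read.

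Trametinib and palbociclib were also compared with each other within set 2. In SW48, HSP90AA1 and HSPB1 were higher with trametinib (2 of 8 members; 21% of all genes) and HSPH1 was lower (1 of 8; 20.9% of all genes). The log2 differences were 0.33 ± 0.06 SE for HSP90AA1, 0.31 ± 0.08 SE for HSPB1 and -0.26 ± 0.06 SE for HSPH1 (edgeR adjusted p = 0.000322, 0.00643 and 0.00246). HSPA1B differed by -0.13 (95% interval -0.27 to 0.02) and HSPA8 by -0.09 (-0.30 to 0.12), neither past the threshold. In SW620, HSPA1A, HSPH1 and BAG3 were lower with trametinib than with palbociclib, 3 of 9 members where 16.7% of all genes were. The differences were -0.40, -0.54 and -0.33 (edgeR adjusted p = 0.0329, 0.00511 and 0.0416). HSPH1 was thus lower with trametinib than with palbociclib in both lines. Without palbociclib 1, palbociclib 3 or trametinib 2 of SW620 the HSPA1A call was lost (adjusted p = 0.0699 to 0.128, edgeR). The BAG3 call was lost without any library but trametinib 1 (adjusted p = 0.0650 to 0.151), and with DESeq2 (0.0872), with no filter on low counts (0.0788) and with the replicate number as a block (0.0756).

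**Figure D4:**
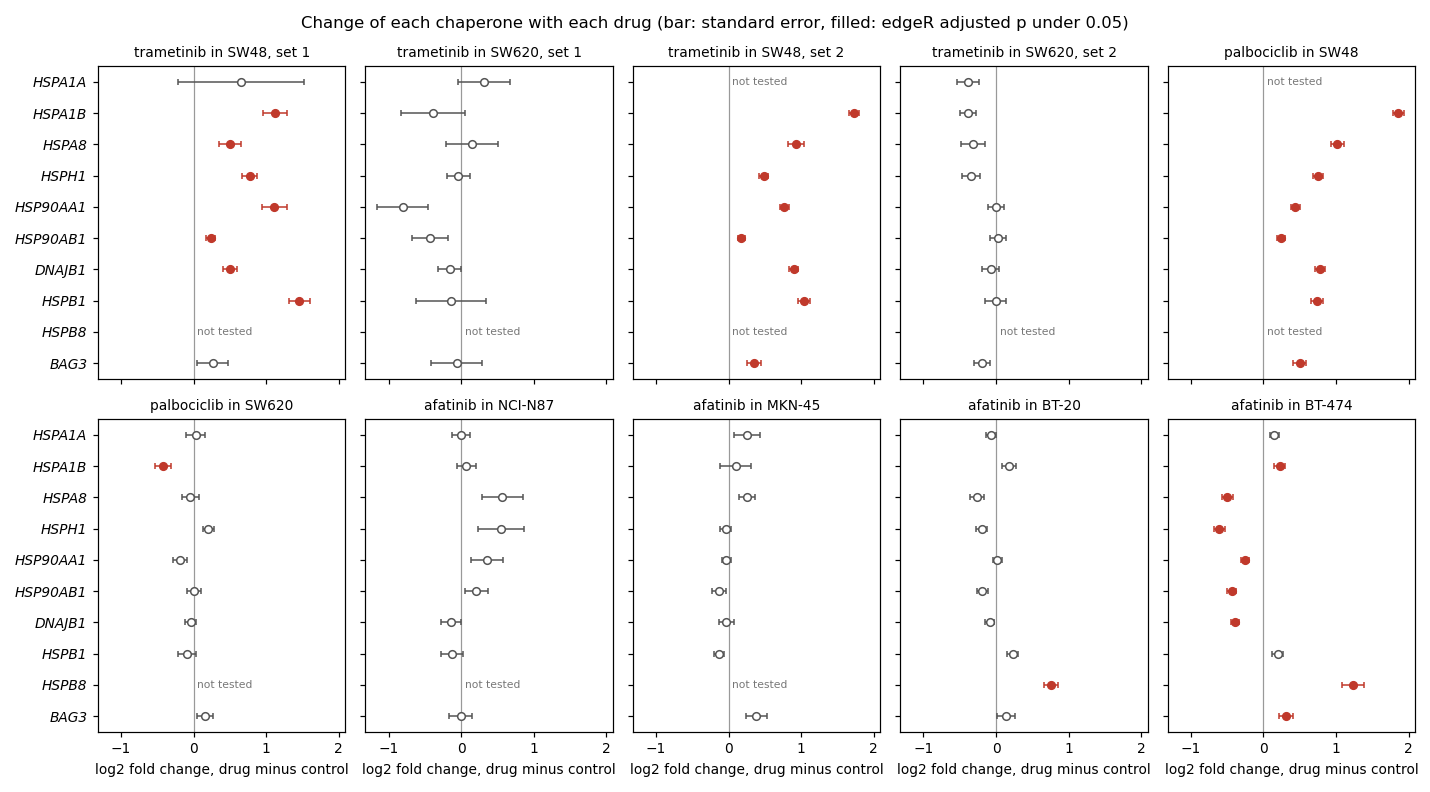
Log2 fold change of each chaperone with each drug against the same line's controls (x axis), with standard errors; filled red marks passed the edgeR test after adjustment over all genes. In the 3 SW48 panels the filled marks all lie above 0, in BT-474 they lie on both sides, and the SW620, NCI-N87, MKN-45 and BT-20 panels hold 2 filled marks between them.

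In BT-474, afatinib was accompanied by lower HSP90, HSP110, constitutive HSP70 and J-protein transcripts and by higher HSPB8, BAG3 and HSPA1B. Of the 10 members, 5 were lower and 3 higher, against 21.8% lower and 20.9% higher among all genes. The members' median was -0.05 and that of all genes 0.01 on the log2 scale. Genes of other lines summed to at most 0.321% of their own line's level in BT-474 controls and at most 1.19% with afatinib. For each other line, all afatinib libraries lay above all controls in this measure. Its part in the chaperone values was not tested.

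HSPB8 stood at 54.8, 64.1 and 59.2 CPM in BT-474 controls and at 164, 154 and 97.5 with afatinib. All 3 treated libraries lay above the controls, and afatinib 3 was lower than the other two. The rise was 2.35-fold (log2 1.23 ± 0.16 SE, adjusted p = 6.24e-05, edgeR), with a log2 value of 1.43 without afatinib 3. Its partner BAG3 went from 23.9, 22.0 and 24.3 CPM to 31.1, 28.3 and 26.7, a 1.24-fold rise (adjusted p = 0.0276, edgeR). HSPA1B went from 163, 133 and 143 CPM to 165, 175 and 168, 1.17-fold (adjusted p = 0.0299, edgeR). Both small rises lay near the threshold: with no filter on low counts neither passed (adjusted p = 0.0634 for BAG3 and 0.0536 for HSPA1B), DESeq2 lost BAG3 (0.129), and summing HSPA1A with HSPA1B gave 0.0591. The HSPA1B call was lost without any library but control 1 (adjusted p = 0.0508 to 0.175), and the BAG3 call without control 1, control 2, afatinib 1 or afatinib 2 (adjusted p = 0.0624 to 0.118; edgeR).

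HSPH1 fell from 375, 322 and 323 CPM to 207, 210 and 247 in BT-474. Its log2 fold change was -0.61 ± 0.08 SE (adjusted p = 8.66e-05, edgeR). HSPA8 fell from 362, 368 and 404 CPM to 276, 279 and 240 (log2 -0.50 ± 0.07 SE, adjusted p = 0.000183, edgeR). In both genes every treated library lay below every control.

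HSP90AB1 went from 3510, 3494 and 3775 CPM to 2521, 2568 and 2790 in BT-474 with afatinib. Its log2 fold change was -0.44 ± 0.06 SE (adjusted p = 0.000135, edgeR), beside that of HSP90AA1 at -0.25 ± 0.06 SE (adjusted p = 0.00483, edgeR). HSP90AA1 went from 5328, 4976 and 5330 CPM to 4354, 4448 and 4202. DNAJB1 went from 259, 251 and 250 CPM to 196, 194 and 184 (log2 -0.39 ± 0.06 SE, adjusted p = 0.000195, edgeR). HSPA1A and HSPB1 had log2 differences of 0.15 and 0.19 that did not pass (adjusted p = 0.0860 and 0.0704, edgeR). HSPA1A passed without control 1 (0.20, adjusted p = 0.0390) and HSPB1 without afatinib 1 (0.25, adjusted p = 0.0344) or with DESeq2 (0.0491).

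In BT-20, 1 of 10 members rose with afatinib, HSPB8, where 0.273% of all genes did. HSPB8 went from 39.4, 39.6 and 44.2 CPM to 59.7, 75.0 and 71.0, so the groups did not overlap. The rise was 1.70-fold (log2 0.76 ± 0.10 SE, adjusted p = 0.00744, edgeR). Without control 2 the log2 value was 0.72 and the adjusted p was 0.0702, in a fit that called 7 genes in all. With no filter on low counts 4 members passed, HSPB1 at 0.22 and HSPA8 and HSP90AB1 at -0.27 and -0.20 beside HSPB8. The share of all genes called in that fit is not given here, and the 0.273% belongs to the fit with the filter. The 9 members that did not pass in the test with the filter lay between -0.27 (HSPA8) and 0.23 (HSPB1) on the log2 scale. At an unadjusted p under 0.05 there were 5 members in that test, HSPB8 among them (edgeR). The share of all genes at that unadjusted threshold was not counted, so these members have no reference. HSPB8 was thus the member with the highest fold in both breast lines.

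The afatinib effects in the breast lines differed for 3 of 10 members, all lower in BT-474 (13.6% of all genes). These were HSPH1 (-0.43), DNAJB1 (-0.32) and HSP90AA1 (-0.29), with edgeR adjusted p of 0.0141, 0.00682 and 0.0158. HSPB8 differed by 0.46 (95% interval 0.00394 to 0.91, adjusted p = 0.136, edgeR), so its larger rise in BT-474 was not shown to differ. Without afatinib 3 of BT-474 that difference was 0.69 and passed (adjusted p = 0.00165, edgeR). The HSPH1 call was lost without control 1, afatinib 1 or afatinib 2 of BT-474 (adjusted p = 0.0564 to 0.0633) and the HSP90AA1 call without control 1, control 3, afatinib 1 or afatinib 3 of BT-474 (adjusted p = 0.0569 to 0.0659). HSPA1A passed as higher without control 1 of BT-474 (0.28, adjusted p = 0.0380), and HSP90AB1 as lower without afatinib 3 of BT-20 (-0.36, adjusted p = 0.00327; edgeR).

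**Figure D5:**
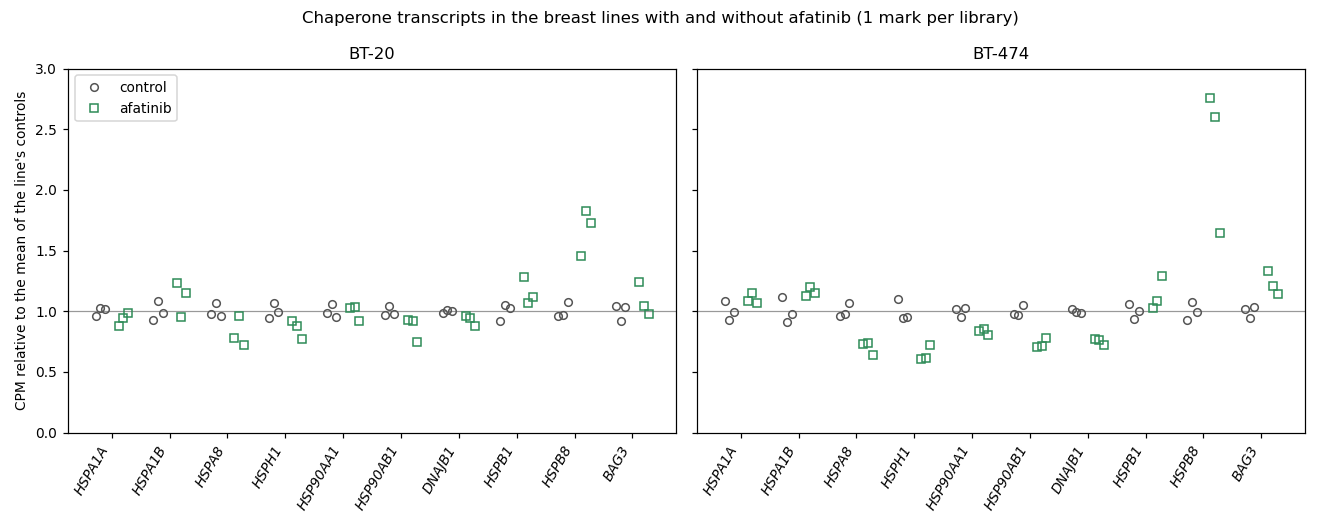
CPM of the 10 chaperones in each BT-20 and BT-474 library divided by the mean of the line's controls (y axis); circles are controls and squares afatinib. HSPB8 lies highest in both lines, and HSPH1, HSPA8, HSP90AB1, HSP90AA1 and DNAJB1 lie below 1 in all 3 treated BT-474 libraries. In BT-20, HSPH1, HSPA8, HSP90AB1, DNAJB1 and HSPA1A also lie below 1 in all 3 treated libraries, though none passed. The share of all genes that lie so was not counted.

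In the stomach lines none of the 9 members tested passed with afatinib, and 0% of all genes did in either line (edgeR). At an unadjusted p under 0.05 there were 0 members in NCI-N87 and 2 in MKN-45, and DESeq2 called 0 in both. The share of all genes at that unadjusted threshold was not counted here either, so the 2 members have no reference. In NCI-N87 the result rests on control 1, which had 364 CPM of HSPH1 against 146 and 154 in the other controls, and 289 CPM of HSPA8 against 169 and 138. With afatinib HSPH1 had 289, 311 and 364 CPM and HSPA8 had 258, 234 and 385. Without control 1, HSPH1 (log2 1.11), HSPA8 (0.93) and HSP90AA1 (0.61) passed as higher (edgeR adjusted p = 0.0010, 0.0139 and 0.0245), among 2108 genes in all. With it, their values were 0.55, 0.57 and 0.36. The other 6 members lay between -0.14 (DNAJB1) and 0.21 (HSP90AB1). The rows RNR1 and RNR2 took 8.15% of counts in control 1 and 3.39 and 3.18% in the other controls, and 4.96 to 10.3% with afatinib; their part in the result was not tested.

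In MKN-45 the 2 members at an unadjusted p under 0.05 were HSPA8 and BAG3. HSPA8 had 419, 343 and 461 CPM in controls and 460, 503 and 487 with afatinib, and BAG3 had 42.4, 30.0 and 43.9 CPM and 47.8, 53.7 and 49.8. The groups overlapped in HSPA8 and not in BAG3. Control 2 was lowest in both, and in HSPA1A it had 97.4 CPM against 158 and 164. Without it the log2 differences were 0.14 rather than 0.26 for HSPA8, 0.23 rather than 0.38 for BAG3 and 0.05 rather than 0.26 for HSPA1A, none past the threshold. The other 6 members lay between -0.13 (HSPB1) and 0.10 (HSPA1B). HSPH1, highest in this line, was at 765 to 898 CPM in controls and 808 to 824 with afatinib.

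Differences of the afatinib effect that involve NCI-N87 changed when that control was left out. MKN-45 minus NCI-N87 gave 0 of 9 members (0.0145% of all genes). DESeq2 called 0 members as well, and 0 had an unadjusted p under 0.05. Without control 1 of NCI-N87, 2 members passed, HSPH1 at -1.17 and HSP90AA1 at -0.66. The genes called in all ran from 0 to 1315 as single libraries were left out. BT-474 minus NCI-N87 gave 2 of 10, both lower (7.82% of all genes): HSPA8 at -1.05 and HSP90AB1 at -0.63 (edgeR adjusted p = 0.0437 and 0.0243), while HSPH1 at -1.14 missed (adjusted p = 0.0522). The HSPA8 call held only without control 1 or afatinib 2 of NCI-N87, and was lost without each of the other 10 libraries. As single libraries were left out, the members called ran from 0 to 4 and the genes called in all from 1456 to 4142. There were 4 members without control 1 of NCI-N87 and 0 without control 3, afatinib 1 or afatinib 2 of BT-474.

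The transcript of HSF1, the main regulator of these genes, did not follow them in SW48. HSF1 was at 47.7, 42.2 and 45.4 CPM in SW48 controls of set 2, and its log2 fold change was -0.81 with trametinib and -0.69 with palbociclib (edgeR adjusted p = 7.04e-05 and 8.39e-05). In set 1 the value was -0.19 and did not pass (adjusted p = 0.279). In SW620 with palbociclib HSF1 rose by 0.66 (adjusted p = 0.0219, edgeR), and in BT-474 with afatinib its difference was -0.21 (adjusted p = 0.248). The difference of the HSF1 effect, SW620 minus SW48, was 1.02 for trametinib and 1.37 for palbociclib (edgeR adjusted p = 0.00311 and 0.000934). HSF2, a related factor, was lower with palbociclib in SW48 (-0.62) and SW620 (-0.72). Of the 4 heat shock factor genes with the binding protein HSBP1 among them, 2 rose and 1 fell with trametinib in SW48 of set 2, and 2 rose and 2 fell with palbociclib. The counts measure the factors' transcripts, not their activity.

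Other chaperone systems in SW48 had genes in both directions, to be read against all genes tested. Of these, 30.1% were higher and 30.1% lower with trametinib in set 2, 28.3% and 29.2% with palbociclib, and 16% and 19.4% with trametinib in set 1. Of 28 co-chaperones and further heat shock factor targets tested in set 2, 9 rose and 9 fell with trametinib, and 16 rose and 7 fell with palbociclib, with medians of 0.03 and 0.26. The trametinib counts are near the share over all genes. In set 1, 9 rose and 6 fell of 27. Polyubiquitin UBB (1.22 with palbociclib) and the testis-enriched HSP70 gene HSPA2 (1.47 with trametinib) rose. HSPA13, an HSP70 of the microsomes, fell by 2.06 with trametinib and by 1.56 with palbociclib. The ring-shaped chaperonin TRiC, which folds actin and tubulin, had 7 of 8 subunit genes lower and 1 higher with trametinib (median -0.45), and 5 lower and 1 higher with palbociclib. In set 1 it had 2 lower and 1 higher. Prefoldin, which hands chains to TRiC, had 3 higher and 3 lower of 6 with trametinib and 1 higher and 3 lower with palbociclib in set 2, and 2 higher and 1 lower in set 1.

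Mitochondrial chaperones and proteases had 8 of 9 genes lower and 1 higher with trametinib in SW48 of set 2 (median -0.80), and 7 lower and 1 higher with palbociclib (median -0.33). HSPA9, the mitochondrial HSP70, had log2 fold changes of -1.57 and -1.36, and the protease LONP1 -1.51 and -1.14. In set 1, 6 of 9 were lower and 1 higher. Of 14 chaperones of the endoplasmic reticulum, 5 rose and 4 fell with trametinib and 8 rose and 5 fell with palbociclib, with CALR, the lectin chaperone calreticulin, at 1.04 and 0.96. In set 1, 3 rose and 8 fell. Of the 5 genes that work with BAG3 and HSPB8 in clearing aggregates, 3 rose and 2 fell with trametinib in set 2, 2 rose and 2 fell of 4 with palbociclib, and 0 rose and 3 fell of 4 in set 1. MAP1LC3B, a protein of the autophagosome membrane, fell in all 3, by 1.30, 0.91 and 1.76.

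In SW620, where 17.6% of all genes were higher and 17.4% lower with palbociclib, the drug gave 6 higher and 6 lower of 27 co-chaperones, 0 higher and 4 lower of 9 mitochondrial genes and 6 higher and 0 lower of 14 chaperones of the endoplasmic reticulum. TRiC had 1 lower of 8, prefoldin 2 lower of 6, the heat shock factor list 2 higher and 1 lower of 4, and the partners of BAG3 and HSPB8 1 higher of 3. There HSPA9 fell by 0.74 and CALR rose by 0.74. Among the 9 cytosolic members tested in the same comparison 1 had passed.

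In BT-474 with afatinib, where 21.8% of all genes were lower and 20.9% higher, TRiC, prefoldin and mitochondrial chaperones had calls in 1 direction. Co-chaperones had 8 lower and 2 higher of 26 tested, TRiC 6 lower and 0 higher of 8, prefoldin 4 lower and 0 higher of 6, and mitochondrial chaperones 5 lower and 0 higher of 9. The TRiC subunit CCT5 fell by 1.07, and the HSP90 co-chaperones CACYBP and PTGES3 (p23) fell by 0.72 and 0.61. The strictly heat-inducible HSPA6 was at 4.36, 1.66 and 4.52 CPM in controls and at 0.170, 0 and 0 CPM with afatinib (adjusted p = 0.000206, edgeR). Chaperones of the endoplasmic reticulum had 6 higher and 1 lower of 14, with HSPA5 (BiP) at 0.40. The heat shock factor list had 2 higher and 1 lower of 4, and no partner of BAG3 and HSPB8 passed. In BT-20, where 0.312% of all genes were lower, 3 of 14 fell, HSPA5 among them at -0.36, and no gene of the other related lists passed. None of the related lists had a gene past the threshold with trametinib in SW620 or with afatinib in NCI-N87 or MKN-45 (edgeR).

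Across the 14 groups of set 2, the mean log2 CPM of the members did not move as 1 block. Over the 45 pairs Pearson's r ran from -0.75 (HSPH1 with HSPB1) to 0.91 (HSPA8 with HSP90AB1), with a median of 0.19. These are descriptions, since groups of a line share that line's base level and some share controls. HSPA1A and HSPA1B had r = -0.07, with HSPA1A near 0 in the 3 SW48 groups. Among 7697 genes, the one most like HSPH1 was CHORDC1, a co-chaperone of HSP90 (r = 0.93), and the one most like HSPB8 was HOOK2 (r = 0.98). HSP90AB1 was closest to MTMR1 (r = 0.97), HSPA1A to LAPTM4B (r = 0.97), HSP90AA1 to TPGS2 (r = 0.97) and HSPA8 to TARS2 (r = 0.96). HSPB1 was closest to CACFD1, HSPA1B to PITRM1, BAG3 to ST14 and DNAJB1 to EPHB3, with r of 0.95, 0.95, 0.94 and 0.93.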

How the data were processed

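Per the labels' protocols, libraries were made with the Lexogen QuantSeq kit, which reads transcript 3′ ends. Per the submitters' processing notes, Trimmomatic, STAR and featureCounts were used with build hg38; the sources used here give no versions, annotation or strand setting. The authors deposited 2 tables of raw counts per gene symbol. The 5 rows of set 1 that name no gene took 39.7 to 73.8% of its reads and were left out, as were 12 columns of the set 2 table that repeat set 1. Those rows, absent from set 2, are named like the special counters of htseq-count. Which program counted set 1 is therefore unsure. No pair of libraries agreed within sampling noise.

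Samples were grouped by line, drug and table as labelled. Each of 17 comparisons was fitted on its own groups in R 4.3.3 with edgeR 4.0.16: filterByExpr (minimum count 10, minimum total 15), TMM, and a two-sided quasi-likelihood test with Benjamini-Hochberg adjustment over all genes tested (threshold 0.05). Standard errors are the log2 value over the root of F, and 95% intervals use t quantiles with edgeR's degrees of freedom. Fits were tested on simulated data. CPM used TMM factors over all libraries of a set. Alternatives were DESeq2 1.42.0, its size factors, no filter on low counts, the replicate number as a block, HSPA1A and HSPA1B summed, and each library left out. Same-numbered libraries did not deviate together (no comparison had all 3 correlations above 0.1), so the numbers were not taken as pairs. Promoters came from RefSeq (GRCh38.p14), transcripts from GENCODE. The members, lists and comparisons were chosen with earlier results of these data known. The rule names all 10 members in every comparison (some only by the range of their values), HSF1 and HSF2, at most 3 called genes of each related list per comparison with the largest absolute fold change, and the genes most like each member over the 14 groups of set 2 among those averaging 4 or more on that scale. Figures used matplotlib.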

Additional observations from a re-analysis of the deposited data

Results flagged for a closer look

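Groups held 3 libraries each, too few for a test of single libraries. What stands out are the members whose drug effect differed between lines by edgeR's test of the difference itself; values are log2, and no explanation was tested. For trametinib, SW620 minus SW48 in set 2, they were HSPA1B (-2.11), HSPA8 (-1.23), HSPB1 (-1.02), DNAJB1 (-0.95), HSPH1 (-0.81), HSP90AA1 (-0.75) and BAG3 (-0.52). For palbociclib in the same lines they were HSPA1B (-2.27), HSPA8 (-1.05), DNAJB1 (-0.81), HSPB1 (-0.81), HSP90AA1 (-0.62) and HSPH1 (-0.54). For afatinib, BT-474 minus BT-20, they were HSPH1 (-0.43), DNAJB1 (-0.32) and HSP90AA1 (-0.29). For afatinib, BT-474 minus NCI-N87, they were HSPA8 (-1.05) and HSP90AB1 (-0.63), and these calls depended on single libraries. That of HSPA8 was lost without any of 10 of the 12 libraries and that of HSP90AB1 without any of 3. Without control 1 of NCI-N87 both held and 4 members passed in all. Over the 12 fits with 1 library left out, 1456 to 4142 genes were called.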

How the results depend on the processing

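Over the alternatives, no fold change of a member that passed in either fit changed sign. Of 1840 refitted values 1750 kept their side of the threshold, 62 lost the call and 28 gained it. Direction was compared only where either fit passed. Some values that passed in neither fit changed sign, as HSPA8 and HSPB1 did with trametinib in SW620 of set 1. Without a filter on low counts the members past the threshold numbered 2 rather than 1 for palbociclib in SW620 (the second was HSPB8), 4 rather than 1 for afatinib in BT-20, 5 rather than 3 for BT-474 minus BT-20 and 4 rather than 2 for BT-474 minus NCI-N87. With 1 library left out, counts ran from 0 to 1 for trametinib in SW620 of set 2, 0 to 2 for palbociclib in SW620, 0 to 3 for afatinib in NCI-N87, 0 to 1 in BT-20, 1 to 4 for BT-474 minus BT-20, 0 to 2 for MKN-45 minus NCI-N87, 0 to 4 for BT-474 minus NCI-N87 and 1 to 3 for trametinib minus palbociclib in SW620. The genes called in all moved too, from 0 to 882, 3336 to 4736, 0 to 2108 and 6 to 96 for the first 4 of these comparisons. For the last 4 they ran from 2773 to 3151, 0 to 1315, 1456 to 4142 and 3102 to 4274. For the fits without a filter, the shares of all genes called are not given here. The cause of these moves was not tested. In SW48 the counts ran from 5 to 7 in set 1, 7 to 8 with trametinib in set 2 and stayed at 8 with palbociclib. In the same order the genes called in all ran from 3309 to 3851, 6855 to 7260 and 6438 to 6961. For afatinib in BT-474 the members called ran from 6 to 8 and the genes called in all from 4515 to 5311. With the replicate block, BT-474 minus NCI-N87 had 1 member rather than 2, and 151 of 154 fold changes kept their call; the 3 lost were HSPA8 there (adjusted p = 0.0833) and BAG3 for trametinib, SW620 minus SW48 (0.0545), and for trametinib minus palbociclib in SW620 (0.0756). DESeq2 and its size factors moved no count of members by more than 1.5 times. HSPB8 outside the breast lines and HSPA1A in SW48 of set 2 fell below the filter on low counts, and with no filter HSPB8 in SW620 with palbociclib alone passed against controls among them.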
